A study of Mus musculus with 2 samples.

Results

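The 9 genes described here are transcripts by which airway epithelium is commonly recognised, read in alveolar macrophages sorted from mouse lung. They are Bpifa1, Bpifb1, Reg3g, Scgb1a1, Scgb3a1, Scgb3a2, Muc5b, Foxj1 and Epcam, and they were taken as the rows of the deposited array table whose platform annotation gives exactly 1 gene symbol, that symbol being one of the 9. Each had 1 row (probe set), which makes 9 of the 22180 genes measured by rows with 1 symbol. The choice was made with differences between the arrays in view, so those differences are a description and support nothing beyond themselves.

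The array labelled PIKfyve KO held RNA from adult C57BL6 mice with floxed Pikfyve alleles and LysM-Cre, in which lysozyme 2 regulatory sequence drives Cre in myeloid cells. The array labelled wild type held RNA from littermates with the floxed alleles and, as labelled, no Cre. Lungs of both were dissociated with collagenase, and DAPI-negative cells positive for both Siglec-F and CD11c were collected by sorting. There was 1 array per genotype and no label states how many mice each array stands for, so no value has a replicate error, no difference was tested, and genotype and array cannot be told apart.

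Airway epithelium is built mainly of secretory cells (club and goblet cells), ciliated cells and basal cells. Club cells secrete secretoglobins and host-defence proteins into the airway lining fluid, goblet cells add gel-forming mucins, and ciliated cells move the resulting layer out of the lung. Alveolar macrophages lie in the airspaces and take up material from this fluid, but they are not known as makers of secretoglobins.

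Values are log2 after RMA, which subtracts background, brings the probe intensities of the arrays to a common distribution and gives 1 value per row. The row values still had different medians, 5.10 on the array labelled PIKfyve KO and 5.17 on the array labelled wild type. The background level was the 95th percentile of 1432 sensory receptor genes (olfactory, vomeronasal and taste), which are mostly not expressed in lung, and stood at 5.31 on the array labelled PIKfyve KO and 5.37 on the array labelled wild type. Genes whose 2-array mean was at least 5.13, the median over every row, formed the comparison set of 12516 genes. The local spread quoted below is the scaled median absolute deviation of the differences of genes of similar mean level; it stands for scatter between these 2 arrays and not for variation between animals. Pikfyve read 5.95 on the array labelled PIKfyve KO and 5.68 on the array labelled wild type, 0.27 apart where the local spread was 0.26. The position of its probes relative to the deleted exons is unknown here, so this row is no check of the genotype labels. All 21 measured alveolar macrophage markers lay above background on both arrays, Siglecf, whose product was used for the sort, at 8.54 and Itgax, which encodes CD11c, at 10.39 on the array labelled PIKfyve KO, against 9.27 and 10.03 on the array labelled wild type.

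RefSeq promoter windows (GRCm38.p6, 250 bases before to 50 after the annotated start) are shown for the 4 genes that differed by at least 2-fold, because 3 of them were higher and 1 lower in the array labelled PIKfyve KO. Each runs 5′ to 3′ on the gene's own strand. Capitals mark matches, on either strand, to the TATA box motif, written as TATAAA, to the NKX2-1 core, CACTTG, to the NF-kappaB motif, GGGNNTTCC, or to the STAT motif, TTCNNNGAA.
Bpifa1, chr2:154142630-154142929, plus strand: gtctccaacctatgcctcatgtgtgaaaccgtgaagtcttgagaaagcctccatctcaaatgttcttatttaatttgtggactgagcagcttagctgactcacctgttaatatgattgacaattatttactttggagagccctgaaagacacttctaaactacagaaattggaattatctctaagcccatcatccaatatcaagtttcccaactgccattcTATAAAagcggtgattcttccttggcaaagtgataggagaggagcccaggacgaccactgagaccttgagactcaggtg
Scgb3a1, chr11:49663345-49663644, plus strand: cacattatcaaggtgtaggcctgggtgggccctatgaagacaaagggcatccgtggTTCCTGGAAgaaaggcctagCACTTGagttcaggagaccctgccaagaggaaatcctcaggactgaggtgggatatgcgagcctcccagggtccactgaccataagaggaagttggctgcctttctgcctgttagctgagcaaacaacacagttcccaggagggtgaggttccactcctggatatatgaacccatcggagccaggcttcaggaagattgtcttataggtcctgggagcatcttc
Reg3g, chr6:78468825-78469124, minus strand: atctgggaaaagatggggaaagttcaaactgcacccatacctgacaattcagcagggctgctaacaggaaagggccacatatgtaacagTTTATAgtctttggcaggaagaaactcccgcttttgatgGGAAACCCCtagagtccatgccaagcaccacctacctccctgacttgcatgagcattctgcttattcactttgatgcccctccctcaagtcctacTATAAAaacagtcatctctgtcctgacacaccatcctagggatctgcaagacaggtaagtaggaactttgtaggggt
Epcam, chr17:87635729-87636028, plus strand: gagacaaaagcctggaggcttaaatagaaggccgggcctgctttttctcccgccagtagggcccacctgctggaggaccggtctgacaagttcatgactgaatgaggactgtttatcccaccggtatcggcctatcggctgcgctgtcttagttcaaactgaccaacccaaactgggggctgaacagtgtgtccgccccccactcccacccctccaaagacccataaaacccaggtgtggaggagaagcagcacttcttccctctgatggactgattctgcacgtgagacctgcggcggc

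No pair of marked matches overlapped. TATAAA began 29 bases before the start of Bpifa1 and 27 bases before that of Reg3g, and was found in 13.6% of all 32851 windows. Reg3g also held a TATAAA match on the opposite strand, beginning 161 bases before the start. Scgb3a1 held a STAT match 194 bases and an NKX2-1 match 174 bases before its start, letters found in 8.30% and 13.6% of windows. Reg3g held an NF-kappaB match 122 bases before its start, found in 5.82% of windows. The window of Epcam held none of these, nor did any of the 4 hold TGTTTAC (forkhead core, 3.65% of windows) or TTGCNNAA (C/EBP core, 10.8% of windows). These matches are letters in a window and say nothing of binding. Bpifb1 had 2 windows in the table, at 2 annotated starts, and 1 of them held a STAT match.

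Of the 9 genes, 3 were at least 2-fold higher (Bpifa1, Reg3g and Scgb3a1) and 1 at least 2-fold lower (Epcam) in the array labelled PIKfyve KO. In the comparison set of 12516 genes the same thresholds were passed by 0.927% upwards and 0.336% downwards. The 9 were chosen from this same contrast, so nothing is read from these shares. In all, 6 of the 9 were higher and 3 lower by any amount, beside 48.9% and 49.6% of the comparison set. Both arrays read above background for 7 of the 9, beside 47.4% of the 22180 genes measured; with the background level at the 99th percentile of receptor genes the count was 4. Scgb3a2 lay just outside the 2-fold threshold, at 1.99-fold, and Scgb3a1 was the nearest gene inside it, at 2.77-fold. The other 4 genes differed by less than 1.5-fold. The 7 genes with secreted products included 6 that were higher, 4 of them by at least 1.5-fold. That threshold was passed by 4.45% of the comparison set upwards and 2.66% downwards, and Epcam was the only one of the 9 to pass it downwards. The median difference over all 9 was 0.22, beside 0.00 over the comparison set. Of the 9 genes, 8 passed the filter on mean level and Foxj1 did not.

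**Figure D1:**
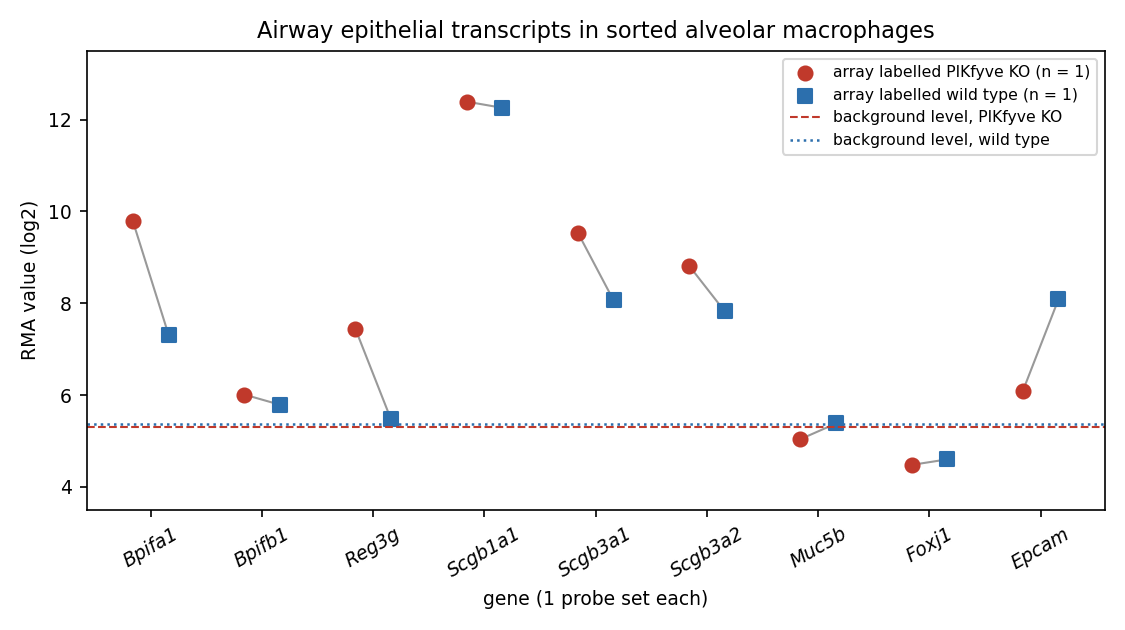
RMA values (log2, vertical axis) of the 9 airway transcripts, with a circle for the array labelled PIKfyve KO and a square for the array labelled wild type (1 array each) and dashed and dotted lines at their background levels of 5.31 and 5.37. Scgb1a1 sits far above background on both arrays, Bpifa1, Reg3g, Scgb3a1 and Scgb3a2 are higher in the array labelled PIKfyve KO, Epcam is lower, and Muc5b and Foxj1 lie near or below background.

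Bpifa1 showed the largest difference of the 9. It encodes a secreted protein of the upper airway lining (also called SPLUNC1) with antimicrobial and surface-active properties. It read 9.78 on the array labelled PIKfyve KO and 7.32 on the array labelled wild type, both well above background. The difference was 2.47, a 5.53-fold higher signal and 7.42 times the local spread of 0.33. It stood 11th when the comparison set was ordered from the highest difference down. Predicted genes, small RNAs and antigen receptor segments left out, the nearest differences over these 2 arrays were those of Abcg2 (2.48), Cd200r2 (2.41) and Igf1 (2.61). The value of Cd200r2 is as read, with the array labelled wild type below background.

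Bpifb1, a longer secreted relative of Bpifa1 in the same gene cluster, did not share this difference. It read 6.01 on the array labelled PIKfyve KO, 0.71 above background, and 5.79 on the array labelled wild type, 0.42 above it. Its difference of 0.22 was smaller than its local spread of 0.26. The other measured genes next to Bpifa1 in the RefSeq order were Bpifa2, Bpifa3 and Bpifa5, with differences of 0.02, -0.14 and -0.17. Across the 14 other genes of the BPIF and LBP family, differences ran from -0.52 to 0.49, and 11 of the 14 lay at background on both arrays.

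Reg3g encodes a secreted C-type lectin that binds peptidoglycan and acts against Gram-positive bacteria, and airway epithelium raises it during infection. It read 7.44 on the array labelled PIKfyve KO and 5.47 on the array labelled wild type. The value on the array labelled wild type was only 0.10 above background, higher than 95.4% of the receptor genes, while that on the array labelled PIKfyve KO was higher than 99.9% of them. The difference was 1.97 (3.92-fold), or 7.45 times its local spread, and Reg3g stood 22nd from the top of the comparison set. With an offset of 32 added on the linear scale, which damps differences near background, it was 1.43. None of the 6 other Reg lectin genes was above background on either array, Reg3b among them at 4.58 on the array labelled PIKfyve KO and 4.61 on the array labelled wild type.

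The 3 secretoglobins, small secreted proteins of club cells, were all above background by at least 2.45 on both arrays, and differed from each other in how far the arrays stood apart. Scgb1a1, which encodes the most abundant club cell secretory protein, read 12.39 on the array labelled PIKfyve KO and 12.26 on the array labelled wild type. The highest value of any row was 13.78 on the array labelled PIKfyve KO and 13.86 on the array labelled wild type. Its difference of 0.14 was smaller than its local spread of 0.20.

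Scgb3a1 read 9.53 on the array labelled PIKfyve KO and 8.07 on the array labelled wild type, a difference of 1.47 (2.77-fold) and 4.69 times its local spread. Scgb3a2, whose product is a reported ligand of the macrophage scavenger receptor MARCO, read 8.82 on the array labelled PIKfyve KO and 7.82 on the array labelled wild type, a difference of 0.99. That is 2.99 times its local spread, and under median centring of the arrays the difference was 1.06. Marco itself read 10.03 on the array labelled PIKfyve KO and 9.46 on the array labelled wild type. Both Scgb3a genes were thus higher by about 3 local spreads or more, and Scgb1a1 differed by less than 1. Among 14 other secretoglobin genes measured, Scgb1b3 alone was above background, at 6.58 on the array labelled PIKfyve KO and 6.20 on the array labelled wild type. The median of that list was 0.38, from Scgb1b3 alone, and -0.28 with the brightest row of each gene, so its direction depended on how rows were combined. The measured genes next to Scgb3a1 were not higher with it: Flt4 and Cnot6 differed by -0.24 and -0.27, and the 4 nearest ranged from -0.50 to -0.07.

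Muc5b and Foxj1 gave little or no signal. Muc5b encodes the gel-forming mucin on which mucociliary clearance in mice depends. It read 5.04 on the array labelled PIKfyve KO, below background, and 5.38 on the array labelled wild type, 0.01 above it, so the bound on its lower signal is at least 1.05-fold. Foxj1, the transcription factor that switches on motile cilia, read 4.48 on the array labelled PIKfyve KO and 4.60 on the array labelled wild type. Both values were below background, higher than 83.2% of the receptor genes on the array labelled PIKfyve KO and 84.1% on the array labelled wild type, so no fold is given.

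Epcam was the 1 gene of the 9 that was at least 2-fold lower. It encodes an adhesion molecule that joins epithelial cells through contacts between identical molecules, and it is also carried by Langerhans cells, macrophage-related cells of the epidermis. It read 6.09 on the array labelled PIKfyve KO, 0.78 above background, and 8.09 on the array labelled wild type, 2.71 above it. The value on the array labelled PIKfyve KO was higher than 98.8% of the receptor genes. It would therefore be below a background set at their 99th percentile. The difference was -1.99, a 3.98-fold lower signal and 6.79 times its local spread of 0.29. With the offset of 32 it was -1.60. In the comparison set no gene had a lower difference, and across the 9 settings tried Epcam stood between 1st and 4th from the bottom. With the same kinds of genes left out as for Bpifa1, the nearest differences were those of Tnf (-1.79), Cpne5 (-1.64) and Cxcl14 (-1.59). The 4 measured genes next to Epcam differed by -0.37 to 0.03.

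**Figure D2:**
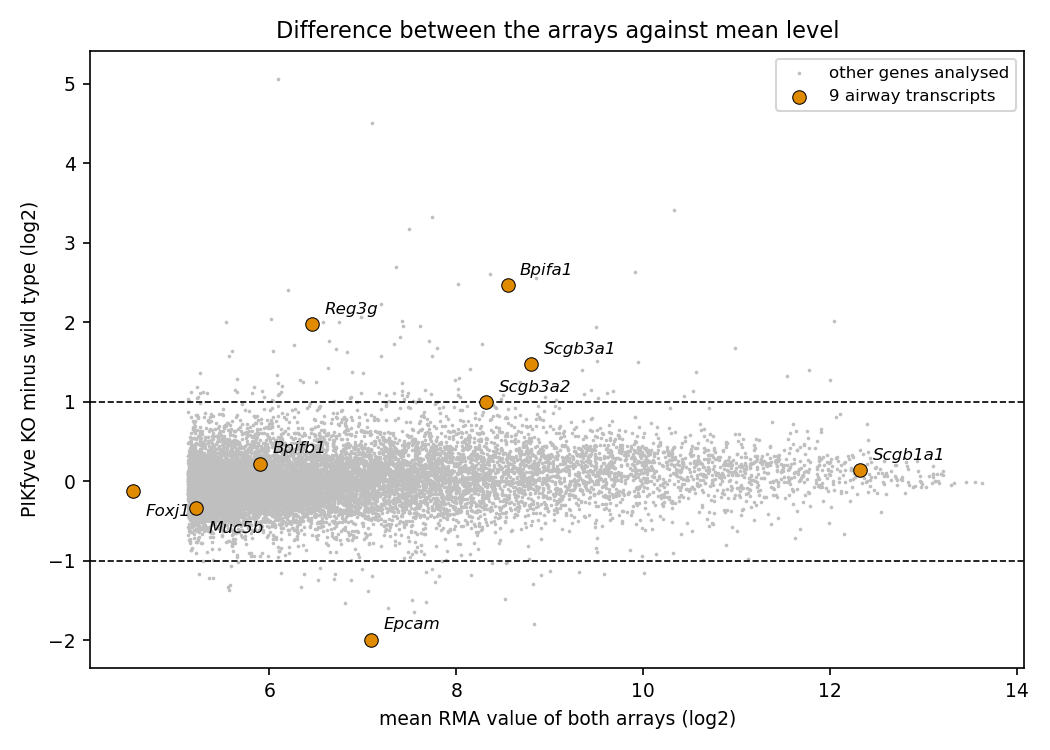
Difference between the arrays (PIKfyve KO minus wild type, log2, vertical axis) against the mean of both (log2, horizontal axis) for the 12516 genes of the comparison set (grey points) and the 9 airway transcripts (orange), with dashed lines at 2-fold. Bpifa1, Reg3g and Scgb3a1 lie above the upper line, Scgb3a2 on it, Epcam below the lower line at -1.99, and Bpifb1, Scgb1a1 and Muc5b inside the cloud; Foxj1 stands left of the cloud because it did not pass the filter.

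Other club cell genes were partly detected. Of 12 measured, 4 were above background, the same number on either array. Cbr2, a carbonyl reductase of club cells, read 8.70 on the array labelled PIKfyve KO and 7.86 on the array labelled wild type, a difference of 0.84. The tight junction gene Cldn10 differed by 0.67 and Cyp2f2, a cytochrome P450 of club cells, by 0.65, while Selenbp1 differed by -0.07. The 5 that passed the filter had a median of 0.65, which depended on the processing: it was 0.42 with the offset, 0.38 with a filter at the 75th percentile, 0.33 over all 12 with no filter and 0.27 with the brightest row of each gene. The summed linear signal of the 12 genes was 993 on the array labelled PIKfyve KO and 751 on the array labelled wild type. Most of the gap between these sums came from Cbr2, and 8 of the 12 genes were below background on both arrays. In RNA from a sorted population, fewer cells of a type and less RNA per cell cannot be told apart, and the part that RNA of epithelial cells has in the values of the 9 genes was not tested.

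Of the secreted antimicrobial genes of the airway 14 were measured. Of the 10 that passed the filter 9 were higher by any amount, beside 48.9% of the comparison set. Their median was 0.42. Wfdc2, an airway secretory antiprotease family gene, read 8.04 on the array labelled PIKfyve KO and 6.93 on the array labelled wild type, a difference of 1.11. Camp (1.09) and Lyz1 (0.85) followed and Lcn2 differed by 0.51, but neutrophils are known to express Camp and Lcn2. The neutrophil list, with all 8 genes above background on both arrays, had a median of 0.44; its furthest genes were Retnlg (0.93), Ly6g (0.78), Mmp8 (0.70) and Csf3r (-0.64). Its summed signal was 9039 on the array labelled PIKfyve KO and 6669 on the array labelled wild type. Slpi, the secretory leukocyte protease inhibitor, read 12.72 on the array labelled PIKfyve KO and 12.71 on the array labelled wild type. It counts among the 9 higher genes, though its difference was smaller than its local spread.

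Markers of the other airway cell types were mostly near background, and those above it were split in direction. Of 26 ciliated cell genes 14 were below background on both arrays, and of the 7 above it on both arrays 2 were higher and 5 lower. Tmem212 differed by 0.69, Dnah11 by -0.40, and Fam183b, at background on the array labelled wild type, was at least 1.26-fold higher. Tppp3, at 10.05 on the array labelled PIKfyve KO and 10.57 on the array labelled wild type, was lower. The summed signal of the 26 genes, most of it from Tppp3 on both arrays, was 1912 on the array labelled PIKfyve KO and 2357 on the array labelled wild type. Of 14 goblet and mucin genes 8 were below background on both arrays, Muc5ac among them at 4.53 on the array labelled PIKfyve KO and 4.94 on the array labelled wild type, and only Tff2 (0.58), Muc1 (-0.33) and Muc4 (-0.05) were above it on both. Agr2, at background on the array labelled wild type, was at least 1.15-fold higher, and Spdef, at background on the array labelled PIKfyve KO, at least 1.24-fold lower. Of the basal cell genes, Trp63 was below background on both arrays and only Dapl1 (0.37) and Itgb4 (-0.28) passed the filter. Krt15, which did not pass it and was at background on the array labelled PIKfyve KO, was at least 1.28-fold lower. Of 10 genes of rare airway cells 4 were above background on both arrays, 2 higher and 2 lower, with Trpm5 furthest apart (0.25); Ascl3, at background on the array labelled PIKfyve KO, was at least 1.57-fold lower. Of 13 epithelial transcription factors and splicing regulators, 11 were below background on both arrays, including Nkx2-1 at 4.73 on the array labelled PIKfyve KO and 5.08 on the array labelled wild type, and the other 2 were Foxa2 (-0.23) and Klf5 (0.09).

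Other epithelial adhesion genes were split in direction. Of 23 junction, keratin and adhesion genes 13 were above background on both arrays, 7 higher and 6 lower, and the median of the 18 that passed the filter was 0.00. Spint1, a membrane-bound serine protease inhibitor, was the furthest apart, at 7.18 on the array labelled PIKfyve KO and 8.06 on the array labelled wild type (-0.88). Cldn1 differed by -0.65. Tjp3, at background on the array labelled PIKfyve KO, was at least 1.30-fold lower, and Cldn3 was at least 1.40-fold higher, being at background on the array labelled wild type. Cdh1, which encodes E-cadherin, read 8.64 on the array labelled PIKfyve KO and 8.74 on the array labelled wild type. The keratin gene Krt19 read 11.44 on the array labelled PIKfyve KO and 11.45 on the array labelled wild type. Krt7, Krt8 and Krt18 were far lower, at 5.91, 6.17 and 5.52 on the array labelled PIKfyve KO. On the array labelled wild type they read 5.48, 5.91 and 5.36. Which cells the RNA of these genes came from was not tested. Cldn7, whose product binds EPCAM, read 5.67 on the array labelled PIKfyve KO and 5.61 on the array labelled wild type. Of the 14 measured genes for EPCAM partners and proteases 13 passed, with a median of 0.06, led by Spint1, Ctnnb1 (0.61), Cd9 (-0.54) and Adam17 (-0.33).

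Alveolar epithelium and dendritic cells were set beside these genes because a Siglec-F and CD11c gate on digested lung could also carry them. Of 10 alveolar type 2 genes 8 passed the filter with a median of 0.08, but Sftpb and Sftpd among them were below background on both arrays. Requiring 1 array above the receptor-gene background made the median 0.51, and it was 0.78 with a filter at the 75th percentile. Sftpc, the surfactant protein C gene, read 9.14 on the array labelled PIKfyve KO and 8.36 on the array labelled wild type, Cxcl15 differed by 0.92, Sftpa1 by 0.84 and Napsa by -0.84. The summed type 2 signal was 1686 on the array labelled PIKfyve KO and 1735 on the array labelled wild type. Most of the latter came from Napsa, which read 9.07 on the array labelled PIKfyve KO and 9.91 on the array labelled wild type. Of 11 type 1 genes 4 were above background on both arrays, with Pdpn at 0.53, Hopx at 0.50, Ager at -0.08 and Akap5 at -0.05. Cav1 and Aqp5, at background on the array labelled wild type, were at least 2.17-fold and 1.28-fold higher. The summed signal of the 11 genes was 920 on the array labelled PIKfyve KO and 730 on the array labelled wild type. Of 8 dendritic cell genes 7 passed with a median of 0.12, 6 of them higher and 0 lower, beside 48.9% and 49.6% of the comparison set. Ccr7 was the furthest apart, at 7.97 on the array labelled PIKfyve KO and 7.31 on the array labelled wild type (0.66). No other gene of the 7 differed by more than its local spread. Cd207, which encodes the Langerhans cell lectin langerin, read 7.57 on the array labelled PIKfyve KO and 7.33 on the array labelled wild type. The alveolar macrophage list had a median of 0.15 over 21 genes, with 14 higher and 7 lower, led by Slc39a2 (1.67), Ctsk (1.32), Krt79 (-0.98) and Siglecf (-0.73).

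**Figure D3:**
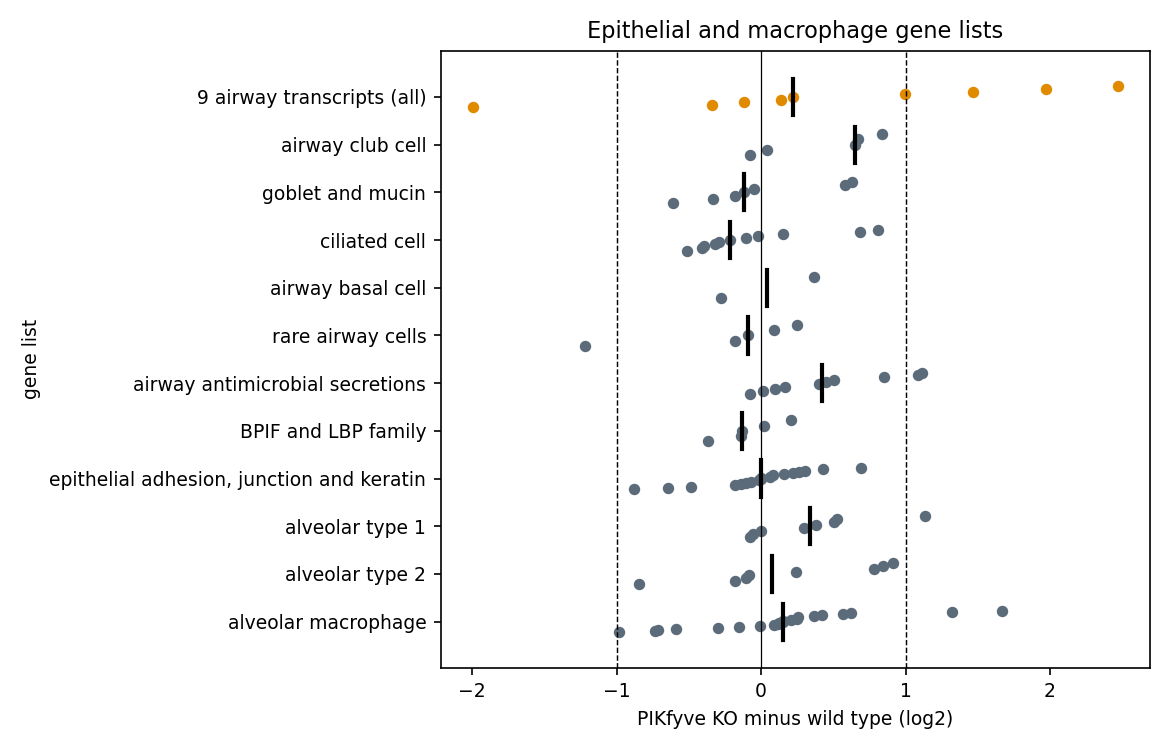
Difference between the arrays (PIKfyve KO minus wild type, log2, horizontal axis) for the 9 airway transcripts (orange, all of them) and for the genes of 11 other lists that passed the filter (grey); each point is a gene, the black bar is the median and dashed lines mark 2-fold. The 9 transcripts span -1.99 to 2.47. Points of genes at background on 1 array are drawn as read, and the medians of the shorter lists depend on the filter: that of the club cell list, 0.65 here, ran from 0.27 to 0.72 over the settings tried.

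Lists of other lung cells were read for the same reason. Of 9 T and NK cell genes 5 were above background on both arrays, 4 higher and 1 lower, led by Gzma (1.14) and Cd3d (0.78). The list median was 0.48 over the 7 that passed the filter, 0.05 with no filter and 0.78 at the 75th percentile. The 5 B cell genes had a median of -0.06, led by Blk (-0.54). Eosinophils carry Siglec-F, and of the 6 measured genes of their list only Ear6 (2.62) was above background on both arrays. Ear6 read 8.60 on the array labelled wild type, where no other gene of the list was above background. Which cells its RNA came from was not tested. With a filter at the 75th percentile Ear6 alone remained of this list. Prg2, at background on the array labelled wild type, was at least 1.31-fold higher, and Ccr3 and Il5ra were below background on both arrays. Of 8 endothelial genes 3 were above background on both arrays, with Calcrl at 0.93, Vwf at 0.16 and Pecam1 at -0.21, and of 8 fibroblast and smooth muscle genes 4 were, with Inmt at 0.77 and Acta2 at -0.17.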

How the data were processed

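Total RNA of sorted alveolar macrophages (10 ng) was amplified, biotinylated and read on Affymetrix arrays, per the labels' protocols. The deposited table holds log2 values of 41345 rows on 2 arrays, made by the authors with RMA, per the submitters' processing notes; no source used here states the version or the genome build. The log base was inferred from the method and the range of the values. Of the rows, 23521 have 1 gene symbol in the platform annotation and were used. Rows of a gene were averaged, which affects 1082 genes and none of the 9. The values carry no depth beyond signal over background, and 1 array per genotype limits the precision. Differences are PIKfyve KO minus wild type; large folds are understated by array signals. For the local spread, genes were put in 20 bins of mean level and the median absolute deviation of each bin was multiplied by 1.4826.

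The members, the 22 gene lists and the motifs were chosen with earlier results of these data known. Named were the 9 members, up to 4 genes of each list by absolute difference, and annotation neighbours of Bpifa1, Scgb3a1 and Epcam. The 3 genes nearest in difference to Bpifa1 and to Epcam were also named. They were sought after predicted genes, unnamed clones, small RNAs and antigen receptor segments were left out. Further list members were named after their values were seen. RefSeq windows were matched by gene ID, and those on a chromosome set aside beforehand were left out. Windows were kept for 5 of the 9 genes. None was printed for Scgb1a1, Scgb3a2, Muc5b and Foxj1, and the reason for each is not given here. Alternatives were median, quantile and loess (span 0.3) centring, an offset of 32, the brightest row per gene, other filters, other folds and other background levels. The counting code was tested on simulated data. Python 3.11.15, pandas 2.3.3 and statsmodels 0.14.6 were used.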

Additional observations from a re-analysis of the deposited data

How the results depend on the processing

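Each of the 9 genes kept the sign of its difference under the 5 alternatives of scaling and row choice. Each had 1 row, so the row choice could only return the same values, and median centring shifted every difference by the same 0.07. Bpifa1 ran from 2.25 to 2.53, Reg3g from 1.43 to 2.04, Scgb3a1 from 1.37 to 1.54, Scgb3a2 from 0.90 to 1.06 and Epcam from -1.997 to -1.60. Of these 45 values, 2 moved by more than the local spread, those of Reg3g and Epcam with the offset of 32. Median centring put Scgb3a2 past 2-fold, which made 4 genes higher, and at 3-fold there were 2 higher and 1 lower. With background at the 99th percentile of receptor genes, 4 of the 9 were above it on both arrays, in place of 7. The genes lost were Bpifb1, Reg3g and Epcam. The number of genes at least 2-fold apart, 158 in the comparison set, was 80 with the offset and 292 with no filter; 890 genes passed 1.5-fold, 41 passed 3-fold and 290 passed 3 local spreads. Of 164 list medians under the alternatives, 17 moved by more than 0.27, the median local spread, among them the ciliated (-0.51) and goblet (0.58) medians at the 75th percentile and the basal cell median (-0.28) at the receptor-gene background; the eosinophil median, 1.05 over 3 genes of which 2 were at background on the array labelled wild type, was 0.57 with the offset, 0.54 with no filter and 2.62 at the 75th percentile. No paired analysis was possible because there is 1 array per genotype, and for the same reason no array could be left out. Values near background limit what can be said of Muc5b, Foxj1 and Bpifb1. The same holds for Reg3g on the array labelled wild type and for Epcam on the array labelled PIKfyve KO.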
